A study of Homo sapiens with 83 samples.

Results

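Small nucleolar RNA host genes are the genes whose introns hold snoRNAs, and most of those studied here leave a spliced, polyadenylated RNA that codes for no protein once the introns are removed. They were taken by name from a table of TPM (a read share scaled for transcript length and to the same total in every library): every symbol of SNHG followed by a number, together with GAS5, ZFAS1, EPB41L4A-AS1, DANCR, TUG1 and MIR17HG. This gave 34 of the 60237 genes listed. A total of 31 had a mean of at least 0.5 TPM over the libraries of SHEP or of SKNAS and were tested among 17971 genes that met the same minimum. The other three, SNHG31, SNHG18 and SNHG27, averaged 0.213, 0.116 and 0.003 TPM in SHEP and 0.240, 0.007 and 0.003 TPM in SKNAS and are only listed.

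SHEP and SKNAS are human lines derived from neuroblastoma, and those used here constitutively express N-MYC-ER, in which N-MYC is joined to the ligand-binding part of the estrogen receptor. MYC-ON cells received 4-hydroxytamoxifen, which lets the fusion enter the nucleus, MYC-OFF cells received the ethanol vehicle, and all cells received dexamethasone 24 h later to set their clocks. RNA was then collected every 4 h from 24 h after dexamethasone (CT24, circadian time). There were 28 libraries of SHEP MYC-OFF and 28 of SHEP MYC-ON (2 series to CT76), 14 of SKNAS MYC-OFF (1 series to CT76) and 13 of SKNAS MYC-ON (1 series to CT72). The ligand and the activated fusion were always given together, so their effects cannot be told apart. The libraries of a series are successive harvests, which the tests treat as independent samples.

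Many box C/D and box H/ACA snoRNAs, though not all, guide the chemical modification of ribosomal RNA. In human cells nearly all snoRNAs of both kinds are cut out of introns as the host transcript is spliced. Many of the spliced host RNAs carry short reading frames that end early, and GAS5 and others are classic substrates of nonsense-mediated decay, the pathway that removes RNAs with an early stop. GAS5 takes its name from its accumulation in growth-arrested cells. MIR17HG carries the miR-17-92 cluster and is a textbook target of MYC. TUG1 and MIR17HG were included by name as noncoding RNAs, although the annotation placed no snoRNA inside either. DANCR, also included by name, holds SNORA26 by position.

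By position, the annotation placed 147 snoRNAs inside 27 of the 34 genes, 121 of them named as box C/D and 23 as box H/ACA, and 83 of the 147 lay in SNHG14 alone. GAS5 held 11 and SNHG1 held 9. The libraries were made from polyadenylated RNA, so the values below are levels of polyadenylated host RNA and not of the mature snoRNAs. In SNHG1, SNHG8, SNHG15, SNHG19, SNHG9 and EPB41L4A-AS1 the annotated exons of all transcripts together cover the whole span of the gene, so gene-level TPM there can include unspliced forms that hold snoRNA sequence. To show what these introns carry, a snoRNA from each of 3 hosts that rose over time (described further on) is given in the host's direction, as DNA of build GRCh38, with box C (TGATGA) and box D (CTGA) in capitals.
SNORD44 in GAS5, chr1:173865968-173866028, minus strand: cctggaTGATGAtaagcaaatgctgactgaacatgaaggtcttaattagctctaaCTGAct
SNORD25 in SNHG1, chr11:62855565-62855631, minus strand: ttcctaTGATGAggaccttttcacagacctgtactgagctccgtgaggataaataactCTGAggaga
SNORD48 in SNHG32, chr6:31835263-31835326, plus strand: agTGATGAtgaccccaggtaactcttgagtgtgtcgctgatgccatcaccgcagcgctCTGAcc

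MIR17HG (chr13:91347686-91397592, plus strand) carries miRNAs in place of snoRNAs. It was among the host genes that moved most in both lines, and the main mature products within its span are shown from RefSeq (GRCh38.p14) with the seed, bases 2 to 8, in capitals. The first pair share a seed, as do miR-19a-3p and miR-19b-3p.
hsa-miR-17-5p: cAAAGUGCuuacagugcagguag
hsa-miR-20a-5p: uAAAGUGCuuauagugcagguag
hsa-miR-18a-5p: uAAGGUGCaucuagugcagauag
hsa-miR-19a-3p: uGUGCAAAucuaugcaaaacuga
hsa-miR-19b-3p: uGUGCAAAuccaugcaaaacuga
hsa-miR-92a-3p: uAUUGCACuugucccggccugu
Mature miRNAs were not measured in these libraries.

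The level of the median gene differed between libraries. The library median is the median of log2(TPM + 1) over the genes that averaged at least 1 TPM in that line. It ran from 3.93 to 4.17 in SHEP MYC-OFF and from 3.93 to 4.12 in SHEP MYC-ON. In SKNAS it ran from 2.97 to 4.38 in MYC-OFF and from 2.76 to 4.25 in MYC-ON. On this log2 scale 4 of 14 and 10 of 13 SKNAS libraries, in that order, lay under 3.8. The SKNAS values are therefore given with that library median as a covariate wherever it changed a call, and the part of the library median in the SKNAS results was not tested beyond this. Of 8 adrenergic markers, 7 averaged at least 0.5 TPM in SKNAS MYC-OFF and 3 in SHEP MYC-OFF, with summed levels of 264 to 611 TPM and of 28.5 to 44.2 TPM. Of 8 mesenchymal markers, 8 reached that level in SHEP MYC-OFF (summed level 3965 to 5288 TPM) and 7 in SKNAS MYC-OFF (784 to 2078 TPM). MYCN, the message of the fusion included, was present in both arms, with medians of 560 TPM in SHEP MYC-OFF and 353 TPM in SHEP MYC-ON. In SKNAS it ran from 29.1 to 987 TPM in MYC-OFF and from 13.1 to 1046 TPM in MYC-ON, so the SKNAS libraries stood far apart on this message, and the part of that in the SKNAS results was not tested. N-MYC-ER is activated by its ligand, so its level does not report on activation.

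The host genes together made up a median of 0.308% of all TPM in SHEP MYC-OFF (range 0.263% to 0.357%), and 73.8% of that came from 6 of them. SNHG5 stood first in SHEP MYC-OFF at 777 ± 87.9 TPM (SD, n = 28), followed by SNHG29 at 525 ± 49.9, GAS5 at 306 ± 49.8, SNHG8 at 253 ± 24.9, SNHG6 at 244 ± 25.9 and SNHG16 at 179 ± 23.1 TPM. SNHG5 and SNHG29 did not overlap in range, and neither did SNHG29 and GAS5, whereas GAS5, SNHG8 and SNHG6 overlapped with their neighbours in the order. Of the 33 neighbouring pairs in that order, 29 overlapped in range. At the low end, MIR17HG averaged 0.97 ± 0.59 TPM, SNHG28 0.63 ± 0.39 and SNHG22 0.55 ± 0.76 TPM.

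**Figure D1:**
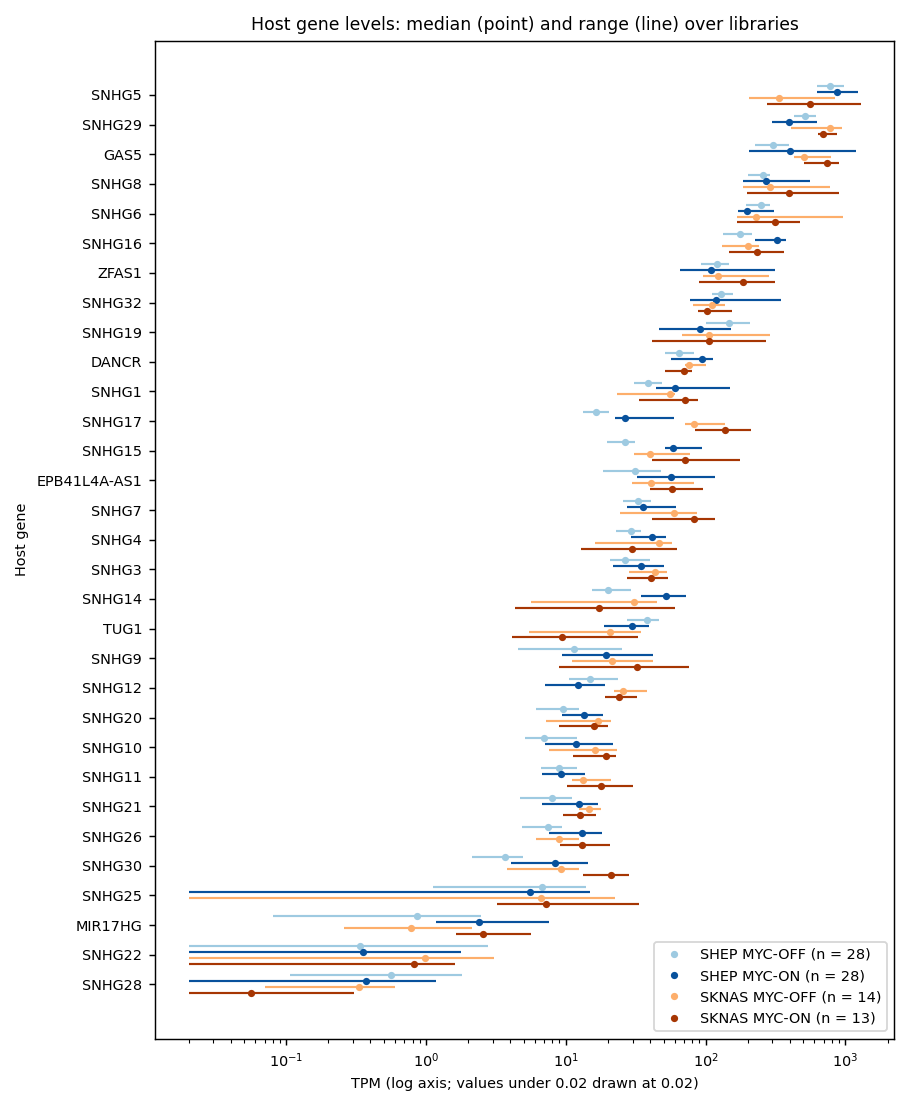
Levels of the 31 tested host genes in TPM (log axis), with the median as a point and the full range over libraries as a line for each of the 4 groups, and values near 0 drawn at the left end. SNHG5 is highest in SHEP at a MYC-OFF median of 773 TPM, the SHEP ranges of SNHG14, SNHG15, SNHG16 and SNHG17 separate MYC-OFF from MYC-ON, and SNHG17 sits higher in SKNAS than in SHEP.

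Most host genes were higher in MYC-ON than in MYC-OFF in SHEP. Of the 31 tested, 19 were higher in MYC-ON, 6 were lower and 6 did not pass (limma on log2(TPM + 1), adjusted p of at most 0.05 over all tested genes and a change of at least 0.15). Over all 17971 genes, 29.7% were called higher and 34.1% lower. The median change was 0.45 on the log2 scale for the host genes and -0.01 for all genes. When the library median was a covariate it was 0.28 against 0.00, with 16 host genes higher and 6 lower. In that fit 31.04% of all genes were called higher and 29.24% lower. SNHG14, SNHG15, SNHG30, MIR17HG and EPB41L4A-AS1 rose most.

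SNHG14, the long host transcript of the SNORD115 and SNORD116 clusters at the imprinted Prader-Willi locus (chr15:24978583-25420336, plus strand), ran from 15.4 to 29.3 TPM with a median of 19.9 in MYC-OFF and from 34.3 to 72.6 TPM with a median of 52.3 in MYC-ON. The groups did not overlap, and its log2 change was 1.31 ± 0.05 (SE; limma, adjusted p = 3.27e-25). SNHG15 (chr7:44983019-44986961, minus strand) ran from 19.8 to 31.1 TPM with a median of 26.6 in MYC-OFF and from 51.3 to 94.5 TPM with a median of 58.5 in MYC-ON. These groups did not overlap either, with a change of 1.17 ± 0.05 (limma, adjusted p = 1.65e-25). SNHG16 went from a median of 175 TPM (132 to 214) to 326 TPM (224 to 374), a change of 0.80 ± 0.06. SNHG17 went from 16.5 TPM (13.3 to 20.4) to 26.6 TPM (22.3 to 59.0), a change of 0.80 ± 0.08. In all 4 of these genes every MYC-ON library lay above every MYC-OFF library, which is 12.9% of the tested host genes. Over all tested genes 4.96% separated upward and 5.12% downward.

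SNHG30 (chr17:35568050-35574900, plus strand) had 2.12 to 4.93 TPM with a median of 3.67 in MYC-OFF and 4.03 to 14.5 TPM with a median of 8.36 in MYC-ON, so the groups overlapped slightly. It changed by 1.07 ± 0.08 and was higher in MYC-ON at 28 of 28 matched times. MIR17HG rose from a median of 0.86 TPM (0.08 to 2.48) to 2.39 TPM (1.18 to 7.62), and its change of 0.96 ± 0.12 is understated on the log2(TPM + 1) scale because of its low level, with 1.57 at a pseudocount of 0.1. EPB41L4A-AS1 rose by 0.88 ± 0.10, from a median of 31.1 TPM (18.4 to 47.6) to 56.6 TPM (32.3 to 117), with overlap. Matched times with the higher value in MYC-ON numbered 25 of 28 for MIR17HG and 26 of 28 for EPB41L4A-AS1.

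Smaller increases were called for SNHG1 (0.75 ± 0.09), SNHG26 (0.72 ± 0.07), SNHG9 (0.71 ± 0.16), SNHG10 (0.66 ± 0.09), SNHG21 (0.55 ± 0.07), GAS5 (0.49 ± 0.11), SNHG4 (0.48 ± 0.05), SNHG20 (0.47 ± 0.06), DANCR (0.45 ± 0.04), SNHG3 (0.29 ± 0.07), SNHG8 (0.21 ± 0.07) and SNHG5 (0.20 ± 0.06), all as log2 changes with SE. With the library median as a covariate GAS5 (0.25), SNHG5 (0.02) and SNHG8 (0.00) were no longer called. SNHG7 passed the p threshold but not the size threshold, at 0.13 ± 0.05, and SNHG11 (0.06 ± 0.06), SNHG22 (-0.04 ± 0.13) and SNHG25 (-0.23 ± 0.25) were not called.

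The host genes that were lower in SHEP MYC-ON were SNHG19 (-0.68 ± 0.11), TUG1 (-0.37 ± 0.06), SNHG29 (-0.35 ± 0.04), SNHG12 (-0.28 ± 0.07), SNHG6 (-0.25 ± 0.04) and SNHG28 (-0.16 ± 0.07). Given that covariate SNHG28 (-0.20) lost its call and SNHG32 (-0.22) was called lower. TUG1, a noncoding RNA that the annotation now types as protein-coding, ran from 27.3 to 46.3 TPM in MYC-OFF with a median of 37.9 and from 18.7 to 39.5 TPM in MYC-ON with a median of 29.5. Its ranges overlapped, but it was lower in MYC-ON at 28 of 28 matched times. SNHG19 had medians of 148 TPM (101 to 209) and 91.8 TPM (46.2 to 151). The count of 6 rests on both series. It was 3 without replicate 1, 5 without replicate 2 and 1 when each series was averaged to a single value per condition. Of all genes 32.2%, 31.1% and 22.8% were called lower in these fits. With the series averaged, 16 host genes and 19.8% of all genes were called higher.

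The average over the course hid a change over time. In SHEP MYC-ON, 13 of the 31 host genes rose linearly with CT and 4 fell, whereas in MYC-OFF 6 rose and 1 fell (limma with the series as a block, adjusted p of at most 0.05). Over all genes 18% rose and 31.1% fell in MYC-ON, and 4.65% rose and 8.24% fell in MYC-OFF. GAS5 and ZFAS1 rose fastest, by 1.01 ± 0.05 and 0.84 ± 0.07 on the log2 scale per 24 h in MYC-ON against 0.14 ± 0.04 and 0.12 ± 0.03 in MYC-OFF. SNHG32, EPB41L4A-AS1, SNHG1 and SNHG8 followed at 0.63 ± 0.07, 0.61 ± 0.08, 0.53 ± 0.07 and 0.52 ± 0.05 in MYC-ON. The other rising genes were MIR17HG (0.44 ± 0.11), SNHG29 (0.30 ± 0.04), SNHG5 (0.27 ± 0.04), SNHG26 (0.25 ± 0.05), SNHG17 (0.22 ± 0.08), SNHG3 (0.21 ± 0.07) and SNHG6 (0.15 ± 0.05).

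GAS5 (chr1:173858559-173868882, minus strand) started lower in MYC-ON than in MYC-OFF and ended far above it. At CT24 it had 223 and 202 TPM in the 2 MYC-ON series against 264 and 283 TPM in MYC-OFF. At CT48 the MYC-ON series stood at 370 and 341 TPM and the MYC-OFF series at 359 and 260 TPM. By CT76 MYC-ON had reached 881 and 1195 TPM, while MYC-OFF stood at 346 and 321 TPM. The ratio of MYC-ON to MYC-OFF thus went from 0.84 and 0.71 at CT24 to 2.55 and 3.73 at CT76. GAS5 was higher in MYC-ON at 2 of 8 matched times between CT24 and CT36 and at 8 of 8 between CT64 and CT76. The slopes of MYC-ON and MYC-OFF differed by 0.87 ± 0.07 per 24 h (limma, adjusted p = 1.84e-15).

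ZFAS1 (chr20:49278178-49299600, plus strand), which hosts SNORD12, SNORD12B and SNORD12C, showed no difference over the whole course, with a log2 change of -0.01 ± 0.09. At CT24 its MYC-ON series had 66.7 and 81.0 TPM against 104 and 103 TPM in MYC-OFF, and at CT76 they had 202 and 312 TPM against 129 and 121 TPM. It was higher in MYC-ON at 0 of 8 early and 8 of 8 late matched times. When the course was divided after CT48, a division made after the courses had been seen, ZFAS1 was lower in MYC-ON from CT24 to CT48 (-0.43 ± 0.06; limma, adjusted p = 1.33e-06) and higher from CT52 to CT76 (0.42 ± 0.12; adjusted p = 0.00525). SNHG32 likewise had an overall change of -0.02 ± 0.08, with -0.30 ± 0.06 up to CT48 and 0.26 ± 0.115 from CT52 on, the latter at an adjusted p of 0.0524.

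The same division separated the other host genes. GAS5 had a log2 change of 0.02 ± 0.07 up to CT48 and of 0.96 ± 0.13 from CT52 on, SNHG8 by 0.01 ± 0.07 and 0.40 ± 0.11, and SNHG3 by 0.06 ± 0.09 and 0.53 ± 0.08. SNHG1, which was called higher in both periods, went from 0.41 ± 0.07 to 1.10 ± 0.13, and EPB41L4A-AS1 from 0.58 ± 0.08 to 1.19 ± 0.16. In contrast SNHG15 stood at 1.2 ± 0.06 and 1.15 ± 0.07, and SNHG16 at 0.74 ± 0.09 and 0.86 ± 0.07. The number of host genes called higher was 16 up to CT48 and 20 from CT52 on, and the number called lower was 8 and 4. Over all tested genes 26.6% and 28% were called higher and 31.7% and 32.3% lower in the same periods. The median change of the host genes was 0.19 and 0.42. In all, 23 of 31 host genes and 49.0% of all genes had the more positive change in the later period.

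**Figure D2:**
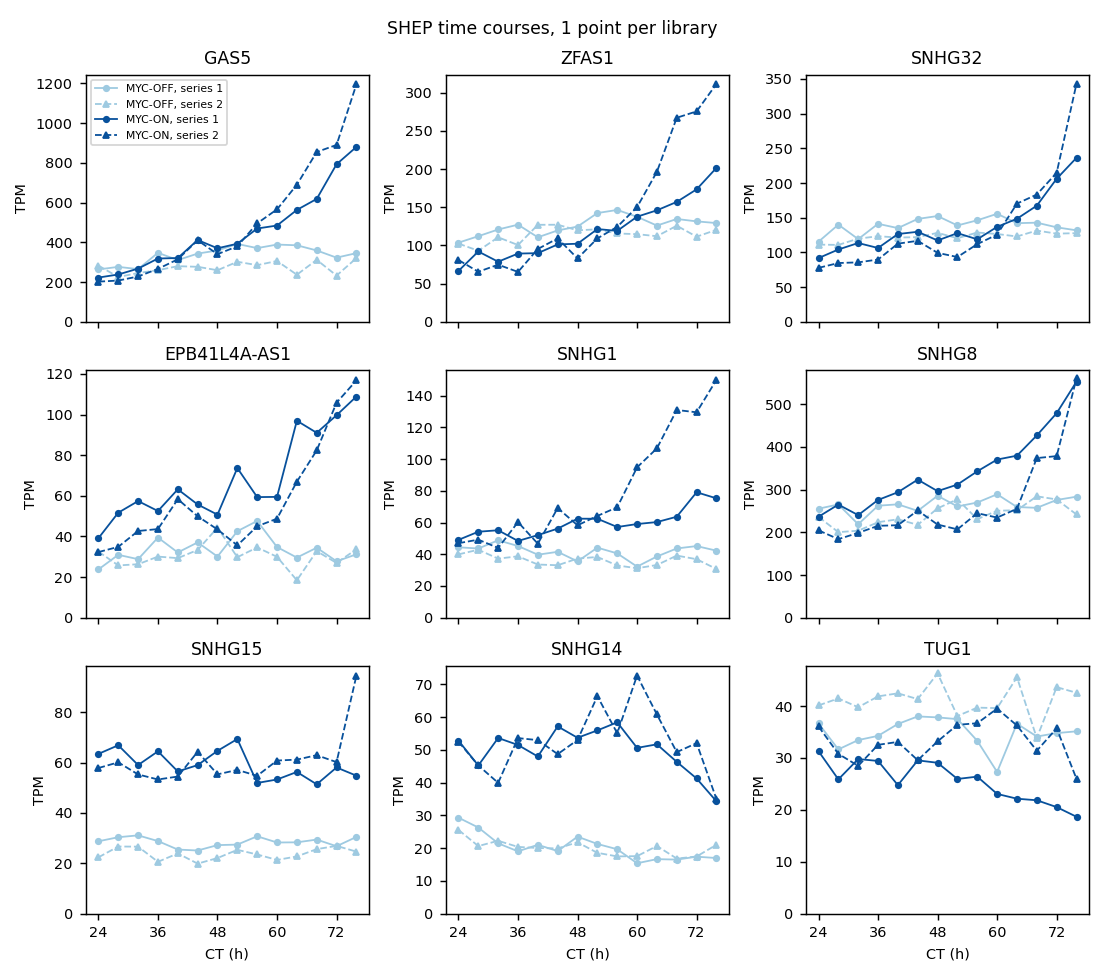
TPM of 9 host genes in SHEP against CT in hours, 1 point per library, with MYC-OFF in light blue and MYC-ON in dark blue, and series 1 as circles and series 2 as triangles. GAS5, ZFAS1, SNHG32, EPB41L4A-AS1, SNHG1 and SNHG8 climb in MYC-ON late in the course, GAS5 from 223 and 202 TPM at CT24 to 881 and 1195 TPM at CT76, whereas SNHG15 and SNHG14 lie above MYC-OFF from CT24 on.

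The slope in MYC-ON exceeded that in MYC-OFF for 11 of 31 host genes. Over all tested genes 36.3% had a different slope, 14.1% upward and 22.2% downward, and with both series in the fit all 11 host genes called were steeper in MYC-ON. Besides GAS5 and ZFAS1 these were SNHG1 (slope difference 0.62 ± 0.08 per 24 h), EPB41L4A-AS1 (0.59 ± 0.11), SNHG32 (0.56 ± 0.07), SNHG8 (0.40 ± 0.06), SNHG26 (0.29 ± 0.06), SNHG3 (0.26 ± 0.10), SNHG17 (0.24 ± 0.09), SNHG29 (0.21 ± 0.04) and SNHG5 (0.19 ± 0.04). With a single series the calls went both ways. Without replicate 1, and also without replicate 2, 10 host genes had a higher and 2 a lower slope in MYC-ON. Of all genes 9.49% and 9.53% differed upward and 16.6% and 15.6% downward in these fits. The median SHEP MYC-ON slope was 0.06 for the host genes and -0.03 for all genes. With the library median as a covariate, GAS5 kept a MYC-ON slope of 0.98, ZFAS1 0.79, SNHG32 0.54 and SNHG1 0.50, and without the harvests after CT68 they had 0.94, 0.77, 0.46 and 0.46, all of them still called.

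The 2 series did not climb equally. SNHG1 in series 2 went from 47.0 to 150.0 TPM between CT24 and CT76, and in series 1 from 49.1 to 75.3 TPM, giving MYC-ON slopes of 0.81 and 0.25, both called. SNHG17 rose only in series 2, from 29.2 to 57.4 TPM, while series 1 had 25.5 and 24.2 TPM, and without replicate 2 its slope was -0.04 with no call. SNHG19 had opposite slopes, 0.31 in series 1 and -0.37 in series 2, each called in its own series. The SHEP MYC-ON libraries listed 21783 to 25484 genes above 0, against 21726 to 22839 in MYC-OFF, and the part of this in the climb was not tested.

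The falling host genes in MYC-ON had small slopes: SNHG9 -0.31 ± 0.13, DANCR -0.18 ± 0.05, SNHG21 -0.15 ± 0.05 and TUG1 -0.13 ± 0.05 per 24 h. With the library median as a covariate none of these 4 passed, the lowest adjusted p by limma being 0.218, for SNHG21. In MYC-OFF the single falling gene was SNHG14, at -0.22 ± 0.04, from 29.3 and 25.5 TPM at CT24 to 16.9 and 21.0 TPM at CT76. No host gene passed for a 24 h rhythm in MYC-OFF or in MYC-ON, where 0.0946% and 0.0223% of all genes were called. At an unadjusted p under 0.05 by limma there were 6 and 0 of the 31, beside 1841 and 1829 of all 17971 genes. The lowest adjusted p of a host gene by limma was 0.153, for SNHG30 in MYC-OFF.

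**Figure D3:**
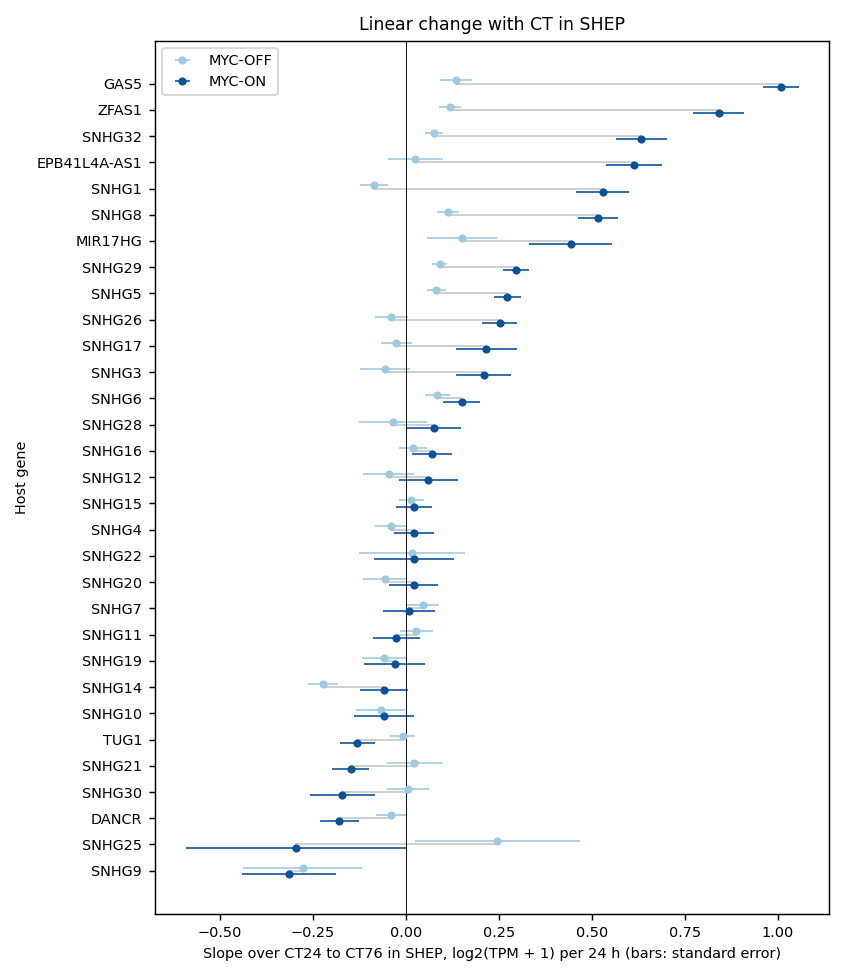
Linear slope over CT24 to CT76 in SHEP for the 31 tested host genes, in log2(TPM + 1) per 24 h, with MYC-OFF in light blue, MYC-ON in dark blue and bars for the standard error. GAS5 and ZFAS1 lie farthest to the right in MYC-ON, at 1.01 and 0.84, and the MYC-OFF slopes lie between -0.28 and 0.25.

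In SKNAS 11 of the 31 host genes were higher in MYC-ON and 2 were lower, against 11.6% and 29.4% of all genes. The median change was 0.28 for the host genes and -0.19 for all genes. Rescaling by the median of ratios moved the median of all genes to 0 and that of the host genes to 0.65, with 15 host genes and 22.4% of all genes called higher. Under the library-median covariate the medians were 0.10 for the host genes and 0 for all genes, with 10 host genes (22.8% of all genes) called higher, and in libraries of high median they were 0.045 and -0.026. SNHG30, MIR17HG and SNHG15 changed most without these adjustments.

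SNHG30 had 3.78 to 12.4 TPM in SKNAS MYC-OFF with a median of 9.16 and 13.4 to 28.4 TPM in MYC-ON with a median of 21.0. The groups did not overlap, which held for 1 of the 31 host genes (3.23%) and, among all genes, for 1.89% upward and 1.74% downward. Its log2 change was 1.17 ± 0.14 (limma, adjusted p = 1.58e-05). MIR17HG changed by 0.95 ± 0.13, from a median of 0.78 TPM (0.26 to 2.14) to 2.55 TPM (1.63 to 5.65). SNHG15 changed by 0.85 ± 0.19, from a median of 39.8 TPM (30.9 to 77.3) to 71.6 TPM (41.5 to 177), with overlap. SNHG30, MIR17HG and SNHG26 were higher in MYC-ON at 13 of 13 matched times.

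The other increases called in SKNAS were SNHG5 (0.68 ± 0.19), SNHG7 (0.57 ± 0.18), SNHG17 (0.56 ± 0.10), SNHG1 (0.44 ± 0.13), SNHG26 (0.44 ± 0.08), EPB41L4A-AS1 (0.41 ± 0.15), GAS5 (0.40 ± 0.08) and SNHG16 (0.28 ± 0.10). With the library median as a covariate SNHG7 (0.44) and EPB41L4A-AS1 (0.09) were no longer called, and SNHG12 (-0.28, against -0.15 ± 0.09 without it) was called lower. DANCR (-0.25 ± 0.08) and SNHG28 (-0.27 ± 0.06) were lower, the latter at means of only 0.33 TPM in MYC-OFF and 0.099 TPM in MYC-ON. TUG1 had the largest negative value in SKNAS, -0.75 ± 0.29, at an adjusted p of 0.0512 by limma, with medians of 20.7 TPM (5.45 to 34.3) in MYC-OFF and 9.46 TPM (4.11 to 32.8) in MYC-ON. ZFAS1 (0.37 ± 0.16) and SNHG9 (0.54 ± 0.24) were not called. Among the 13 libraries with a median of at least 3.8, 10 of MYC-OFF and 3 of MYC-ON, 7 host genes were called higher and 3 lower, against 17.0% and 21.1% of all genes.

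Of the 31, 10 were called higher in both lines, SNHG28 was lower in both, and DANCR was higher in SHEP and lower in SKNAS. SNHG28 met the minimum only through SHEP, where it averaged 0.63 TPM in MYC-OFF and 0.45 TPM in MYC-ON. In SKNAS it averaged 0.33 and 0.099 TPM, so both of its calls lie near the floor. Over all tested genes 8.79% were higher in both lines, 18.6% lower in both and 1.93% higher in SHEP and lower in SKNAS. Under the same covariate SNHG5 and GAS5 lost the SHEP call and EPB41L4A-AS1 the SKNAS call, and SNHG28 lost its SHEP call (limma, adjusted p = 0.0495) both then and with the replicate block. DANCR, a noncoding RNA named for opposing cell differentiation, had medians of 64.7 TPM (51.4 to 82.5) in SHEP MYC-OFF and 94.5 TPM (56.1 to 113) in SHEP MYC-ON. In SKNAS its medians were 76.4 TPM (71.4 to 101) in MYC-OFF and 69.8 TPM (51.6 to 79.3) in MYC-ON. The ranges overlapped in both lines, and the effect differed between lines by -0.70 ± 0.08 (SKNAS minus SHEP; limma, adjusted p = 4.45e-10). With the library median as a covariate the difference was -0.68, although the SKNAS change alone (-0.22) no longer passed, and after median-of-ratios rescaling that change was 0.12 and not called.

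The MYC effect differed between lines by at least 0.66 in 5 host genes (16.1% of those tested), against 19.7% of all genes. SNHG14 differed most, by -1.71 ± 0.22 (limma, adjusted p = 1.87e-09), since it was higher in every SHEP MYC-ON library but in SKNAS ran from 5.65 to 45.1 TPM in MYC-OFF and from 4.29 to 60.5 TPM in MYC-ON. Its SKNAS change was -0.41 ± 0.34 and did not pass, whereas with the library median as a covariate it was 0.43 and was called higher. Even then its effect differed between lines by -1.03. SNHG4 differed by -0.86 ± 0.14 and SNHG21 by -0.75 ± 0.12, each higher in SHEP with a SKNAS change (-0.38 ± 0.20 and -0.20 ± 0.08) that did not pass. With the covariate SNHG4 differed by -0.47, under the size threshold, and EPB41L4A-AS1 (-0.79) passed. SNHG19 differed by 0.71 ± 0.23, and by 0.33 without a call when the covariate was used. After median-of-ratios rescaling 4 host genes were called for a positive difference (SKNAS minus SHEP) and 1 for a negative one. Of all genes 8.21% and 8.64% were called in that fit.

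**Figure D4:**
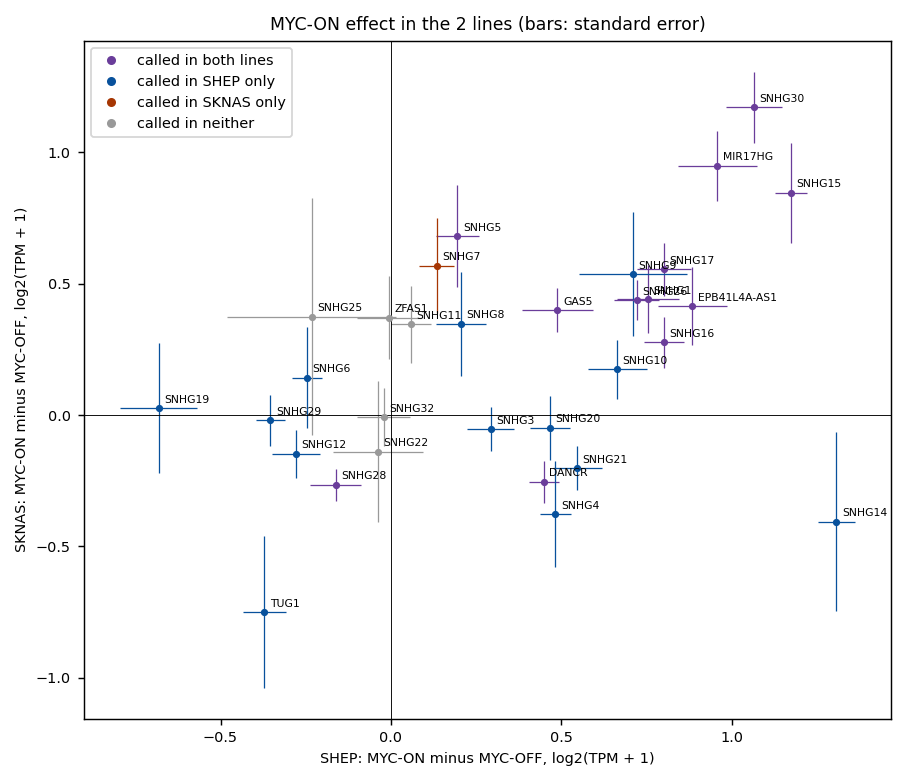
Log2 change of each tested host gene between MYC-ON and MYC-OFF in SHEP (x axis) and SKNAS (y axis), on log2(TPM + 1), with bars for the standard error and colours for the lines in which the gene was called. SNHG30, MIR17HG and SNHG15 lie at the upper right, SNHG14 at the lower right (1.31 in SHEP and -0.41 in SKNAS), and DANCR is the one gene called in opposite directions.

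The late climb seen in SHEP was not detectable in the single SKNAS series. None of the 31 host genes passed for a slope with CT in SKNAS MYC-OFF or MYC-ON, or for a difference between them. At an unadjusted p under 0.05 by limma there were 9, 4 and 0 of the 31, beside 5407, 1222 and 686 of all 17971 genes. After adjustment 0.00556% of all genes rose and 0% fell in MYC-OFF, 0.039% rose and 0.0779% fell in MYC-ON, and 0.089% differed. GAS5 had slopes of 0.30 ± 0.09 in MYC-OFF and 0.24 ± 0.08 in MYC-ON per 24 h, and ZFAS1 0.55 ± 0.17 and 0.40 ± 0.18. These slopes were added after the SHEP courses had been seen, and whether they differ from those of SHEP was not tested.

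The lines also differed in vehicle-treated cells. In MYC-OFF, 9 host genes were at least 0.66 higher on the log2 scale in SKNAS than in SHEP and 2 were lower, against 19.1% and 28.9% of all genes. SNHG17 differed most, with 71.2 to 137 TPM and a median of 82.4 in SKNAS against 13.3 to 20.4 TPM and a median of 16.5 in SHEP, without overlap, and a difference of 2.39 ± 0.08 (limma, adjusted p = 1.48e-22). SNHG30 (1.11 ± 0.09), SNHG10 (1.03 ± 0.09), SNHG9 (0.93 ± 0.20), GAS5 (0.85 ± 0.08), SNHG21 (0.82 ± 0.08), SNHG12 (0.74 ± 0.09), SNHG7 (0.73 ± 0.09) and SNHG15 (0.71 ± 0.09) were also higher. SNHG5 (-1.12 ± 0.13) and TUG1 (-1.03 ± 0.16) were lower in SKNAS. In the order of levels SNHG29 and GAS5 led in SKNAS MYC-OFF, at 771 ± 130 TPM and 558 ± 119 TPM (n = 14), followed by SNHG5 at 397 ± 216 TPM. With SKNAS libraries of high median only, TUG1 (-0.58) passed the p threshold but not the size threshold, and SNHG14 (0.74) passed both.

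Several host genes share a start region with a protein-coding neighbour, and 9 tested pairs had starts within 1000 bases of each other. SNHG1 starts 51 bases from SLC3A2, the heavy chain of amino acid transporters, on the opposite strand. Both were higher in SHEP MYC-ON, by 0.75 ± 0.09 and 1.00 ± 0.04, and both in SKNAS, by 0.44 ± 0.13 and 0.97 ± 0.11. Over time SNHG1 rose in SHEP MYC-ON by 0.53 ± 0.07 per 24 h and SLC3A2 fell by 0.32 ± 0.06 per 24 h. SLC3A2 also fell in MYC-OFF, by 0.28 ± 0.04 per 24 h, where SNHG1 had a slope of -0.09 ± 0.04 that did not pass. ZFAS1 rose by 0.84 ± 0.07 and its divergent neighbour ZNFX1, a helicase gene, fell by 0.23 ± 0.03 per 24 h. ZNFX1 was also lower in MYC-ON over the course, with a change of -0.60 ± 0.04.

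GAS5 and ZBTB37, whose starts lie 800 bases apart and whose spans overlap on opposite strands, had MYC-ON slopes of 1.01 ± 0.05 and -0.17 ± 0.06. SNHG9 starts 54 bases from RPS2, a ribosomal protein gene of the small subunit. SNHG9 was higher in SHEP MYC-ON by 0.71 ± 0.16 whereas RPS2 changed by -0.07 ± 0.04 without a call. TUG1 and MORC2 (471 bases apart) moved in opposite directions, -0.37 ± 0.06 and 0.34 ± 0.04, whereas SNHG19 and TRAF7 (293 bases apart) were both lower, by -0.68 ± 0.11 and -0.28 ± 0.06. ACAA2, 12 bases from SNHG22, was lower by -0.43 ± 0.03 while SNHG22, at 0.55 TPM, was not called. Of the 2 untested genes with a tested divergent neighbour, SNHG31 lies by BARD1 (-0.43 in SHEP) and SNHG18 by SEMA5A (0.29).

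SNHG3 overlaps RCC1, the chromatin-bound exchange factor of Ran, on the same strand with starts 37 bases apart, and SNHG4 likewise overlaps MATR3 with starts 350 bases apart. RCC1 was higher in SHEP MYC-ON by 0.95 ± 0.04 against 0.29 ± 0.07 for SNHG3, and MATR3 by 0.28 ± 0.10 against 0.48 ± 0.05 for SNHG4. SNHG14 shares its strand with SNRPN, which was higher in SHEP by 0.55 ± 0.04, and lies opposite UBE3A, higher by 0.31 ± 0.05. Where spans overlap, reads from common sequence may have been divided between the genes, so the values of SNHG3, SNHG4, SNHG14 and SNHG20 (which overlaps SEC14L1) are uncertain in that respect. The strand of the libraries is not given in the sources used here, so antisense pairs such as GAS5 and ZBTB37 share this limit.

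**Figure D5:**
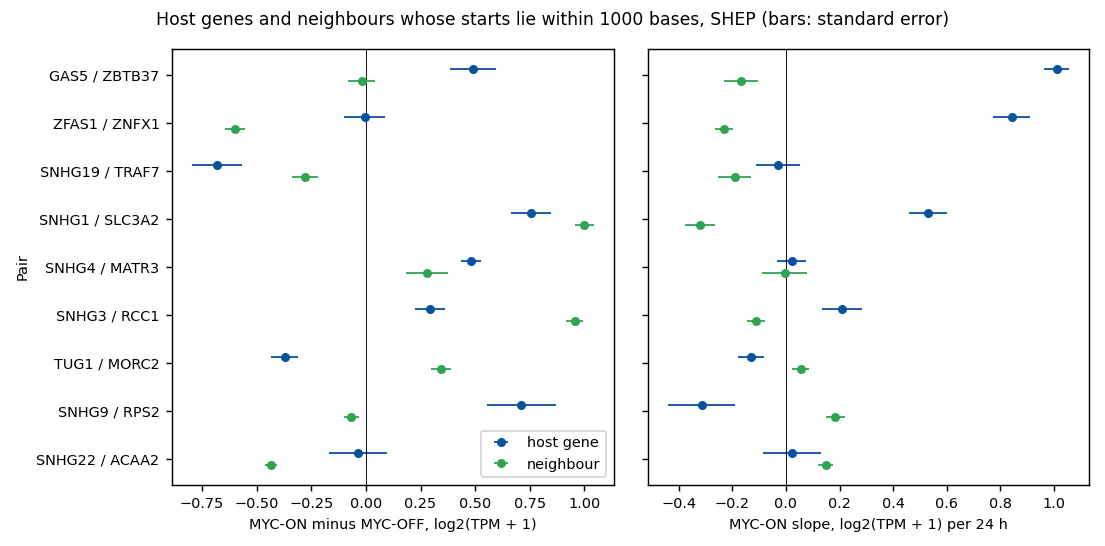
SHEP log2 change between MYC-ON and MYC-OFF (left) and MYC-ON slope per 24 h (right) for the 9 pairs of a tested host gene (blue) and a neighbour (green) whose starts lie within 1000 bases, with bars for the standard error. SNHG1 and SLC3A2 share the direction on the left (0.75 and 1.00) and have opposite slopes on the right (0.53 and -0.32).

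Other snoRNA hosts code for proteins, mainly ribosomal proteins and translation factors. Of 36 in that list, all tested, 16 were higher and 5 lower in SHEP MYC-ON (29.7% and 34.1% of all genes) with a median change of 0.13, and 10 were higher and 2 lower in SKNAS (11.6% and 29.4% of all genes). NOP56, a core protein of box C/D particles (1.53 ± 0.05 in SHEP and 1.15 ± 0.05 in SKNAS), and NCL, the nucleolar protein nucleolin (1.15 ± 0.06 in SHEP), changed most in SHEP, and EIF4A2 was lower in SKNAS (-0.67 ± 0.16). In MYC-ON 24 of the 36 rose with CT and 6 fell (18% and 31.1% of all genes), and in MYC-OFF 22 rose and 4 fell (4.65% and 8.24%). The ribosomal protein gene RPL12 rose by 0.39 ± 0.03 per 24 h in MYC-ON and RPL13A by 0.20, while HSPA8, which encodes a heat shock protein, fell by 0.56 ± 0.07 per 24 h.

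Of 20 genes for proteins that bind and assemble snoRNAs, the snoRNP core and its assembly factors, 19 were higher in SHEP MYC-ON (29.7% of all genes, median change 0.57) and 11 in SKNAS (11.6% of all genes, median 0.43). The others did not pass, among them TGS1 (-0.43) and COIL (-0.15) in SKNAS. NOLC1, a chaperone of snoRNPs, changed by 1.76 ± 0.02 in SHEP, and FBL, the methyltransferase of box C/D particles, by 1.66 ± 0.03 in SHEP and 1.41 ± 0.12 in SKNAS. With CT in SHEP MYC-ON 10 of the 20 fell and 2 rose, beside 31.1% and 18% of all genes. NOP58 fell by 0.30 ± 0.05 and NOP56 by 0.24 ± 0.05 per 24 h.

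Among 19 genes of nonsense-mediated decay and RNA turnover, 9 were higher and 3 lower in SHEP MYC-ON (29.7% and 34.1% of all genes), and 4 were higher and 1 lower in SKNAS (11.6% and 29.4%). The exonuclease gene XRN1 was lower in both lines (-0.84 ± 0.08 and -1.14 ± 0.37), and EIF4A3 (0.76 ± 0.05 in SHEP) and MAGOHB (0.77 ± 0.10 in SKNAS), both of the exon junction complex, were higher. In the MYC-ON course 13 of the 19 fell with CT and 2 rose (31.1% and 18% of all genes), beside 1 and 1 in MYC-OFF. SMG6 fell by 0.44 ± 0.05, EIF4A3 by 0.43 ± 0.03 and UPF1, the helicase at the centre of the pathway, by 0.20 per 24 h, and XRN1 and UPF3A rose. The part of these genes in the climb of the host genes was not tested.

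Promoter sequences (RefSeq, GRCh38.p14, 250 bases before to 50 after the start) were at hand for 30 of the 34 host genes and were searched for CACGTG, the canonical E-box bound by MYC and its partner MAX, which reads the same on both strands. It was found in 3 of the 30 (10%) and in 7.43% of all 27305 promoters. These were SNHG30, which rose in both lines, SNHG7, and TUG1, which was lower in SHEP. The stretches are printed with the hexamer in capitals because the 3 genes differed in direction.
SNHG30, chr17:35568037-35568066, plus strand: ctcaggggcgccCACGTGacccgatggccg
SNHG7, chr9:136728289-136728318, minus strand: ctgagcagcgccCACGTGcgggcgcgggga
TUG1, chr22:30969176-30969205, plus strand: tcccgcccctgtCACGTGacagcgtgcgcc
Of the 17 host genes higher in SHEP MYC-ON that had a promoter sequence, 1 held it, and of the 10 others tested, 2 did.

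Many transcripts for ribosomal proteins and several snoRNA host RNAs begin with a C followed by a run of C and T, the 5′ terminal oligopyrimidine tract through which mTOR controls their translation. A run of at least 5 bases of only C and T that opens with C within 5 bases of the RefSeq start, on the strand of the gene, was present in 14 of the 30 host genes (46.7%) and in 21.1% of all promoters. It was present in 5 of the 11 host genes with a steeper slope in MYC-ON (45.5%) and in 7 of the 16 other tested ones (43.8%). ZFAS1, SNHG32, SNHG5, SNHG19 and SNHG4 have the run exactly at the RefSeq start and are shown from 10 bases before it to 20 bases from it, with the run in capitals. The first 3 of the 5 had the steeper slope, and SNHG19 and SNHG4, with a run of 13 bases, did not.
ZFAS1, chr20:49278632-49278661, plus strand: gccattcgttCTTTCgcgtctgcggtgccc
SNHG32, chr6:31834906-31834935, plus strand: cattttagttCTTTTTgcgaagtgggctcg
SNHG5, chr6:85678714-85678743, minus strand: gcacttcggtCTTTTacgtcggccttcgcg
SNHG19, chr16:2155339-2155368, minus strand: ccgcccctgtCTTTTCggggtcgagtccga
SNHG4, chr5:139274091-139274120, plus strand: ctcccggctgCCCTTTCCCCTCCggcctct
The RefSeq and Gencode starts lie apart by 464 bases for ZFAS1, 308 for SNHG32, 199 for SNHG5, 163 for GAS5, 47 for SNHG19 and 1 for SNHG4, so neither the presence of a run in these windows nor its absence, as for GAS5, says which start is in use.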

How the data were processed

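Polyadenylated RNA of 83 libraries was sequenced on a NovaSeq as 150-base pairs, and per the labels and the study's methods the authors quantified it with Salmon 1.3.0 on GRCh38 and deposited 1 table of TPM for 60237 genes. TPM keep no read depth, so depth per library is unknown and no counting interval is given. Groups, series and CT came from the sample titles.

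Values were analysed as log2(TPM + 1) with limma 3.58.1 in R 4.3.3 over the 17971 genes that averaged at least 0.5 TPM in either line, with an intensity trend and Benjamini-Hochberg adjustment over all of them. The MYC-ON effect was fitted in each line with CT as a factor, and the difference between lines in 1 fit. Slopes and 24 h rhythms in SHEP carried the series as a block. Calls needed an adjusted p of at most 0.05, with a change of at least 0.15 for MYC effects and 0.66 for differences between lines. The study modelled its own read counts, and limma stands in because the deposited values are TPM. TPM are shares, so a few abundant RNAs can shift all others. In SHEP the deviations of the 2 series correlated between MYC-OFF and MYC-ON across genes at 0.46. No 2 libraries were identical. The fits were tested on simulated data with independent noise in every library. That test therefore cannot show how the fits behave with correlated harvests or with deviations shared within a series.

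Every host gene is named. Fuller values went to the 8 with the largest mean absolute change over both lines, to those called in opposite directions or for different effects, and to the genes named other than SNHG. Of each other list the genes named are led by the 2 largest changes per line, and those named for slopes were chosen after their values were seen. The members and lists were chosen with earlier results of these data known. Gene spans are of Gencode 44 and snoRNAs of RefSeq, both GRCh38. Alternatives covered pseudocounts of 0.1 and 0.5, a minimum of 1 TPM, no filter, median-of-ratios rescaling, the library median as covariate, and omission of series or libraries. U2OS libraries were not analysed here.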

Additional observations from a re-analysis of the deposited data

Results flagged for a closer look

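The MYC-ON effect differed between SHEP and SKNAS by at least 0.66 on the log2 scale in 5 host genes, by an interaction term in limma. These were 16.1% of those tested, against 19.7% of all genes. As SKNAS minus SHEP the differences were -1.71 for SNHG14, -0.86 for SNHG4, -0.75 for SNHG21, -0.70 for DANCR and 0.71 for SNHG19. The SKNAS libraries of MYC-ON had lower medians than those of MYC-OFF, and once that median entered the fit SNHG14, SNHG21 and DANCR still passed.

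In SHEP the slope with CT was larger in MYC-ON than in MYC-OFF, tested as a difference of slopes per 24 h. The differences were 0.87 for GAS5, 0.72 for ZFAS1, 0.62 for SNHG1, 0.59 for EPB41L4A-AS1, 0.56 for SNHG32, 0.40 for SNHG8, 0.29 for SNHG26, 0.26 for SNHG3, 0.24 for SNHG17, 0.21 for SNHG29 and 0.19 for SNHG5. That of SNHG17 rested on series 2, since it was -0.05 without replicate 2.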

How the results depend on the processing

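Of 104 recomputed counts of host genes, 89 stayed within 1.5 times the reported one. In SHEP the 6 host genes lower in MYC-ON became 1 with series means as replicates, against 22.8% of all genes. They became 3 to 5 when a replicate was left out, against 32.2% and 31.1% of all genes. In SKNAS the 11 higher became 7 in libraries of high median (17.0% of all genes). The 2 lower became 0 after median-of-ratios rescaling (20.9% of all genes). That rescaling also took those higher in SKNAS than in SHEP MYC-OFF from 9 to 14. It moved the median difference of all genes there from -0.13 to -0.01 and that of the host genes from 0.35 to 0.52. With high-median SKNAS libraries only, the 2 lower there became 1. The shares of all genes in these recomputed fits between lines are not given here, so the counts do not single out host genes. In SHEP MYC-OFF the 6 rising with CT became 2 without the replicate block, 3 with the library median as covariate and 1 to 2 without a replicate, and the 1 falling became 0 to 1. In SHEP MYC-ON the 4 falling became 1 after median-of-ratios rescaling, 1 without the replicate block, 0 with the library median and 1 up to CT68. The shares of all genes for these recomputed counts of rising and falling genes are not given here. The counts therefore do not single out host genes. The shared replicate numbers mark the series. With the replicate block the SHEP effect gave 19 higher and 5 lower, against 29.9% and 34.3% of all genes. The gene lost was SNHG28, and the block changed no other SHEP call. The slope counts without it were 12 rising in MYC-ON and 9 differing. All 9 were steeper in MYC-ON, where 12.8% of all genes differed upward and 20.4% downward. The causes were not tested.

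Of 1575 recomputed values of single host genes 1420 kept direction and call, 100 lost the call, 39 gained it and 16 took the opposite sign with a call on one side. After median-of-ratios rescaling the SKNAS changes of DANCR, SNHG20 and SNHG3 were 0.12, 0.31 and 0.31. The SKNAS change of SNHG14 was 0.43 with the library median, and those of SNHG19 and SNHG7 were -0.75 and -0.046 in libraries of high median. ZFAS1 in SHEP was 0.42 from CT52 on, and SNHG7 in MYC-ON had a slope of -0.16 up to CT68. When a replicate was left out, the MYC-ON slope ran from -0.26 to 0.21 for SNHG11, from -0.12 to 0.16 for SNHG15, from -0.040 to 0.47 for SNHG17, from -0.37 to 0.31 for SNHG19 and from -0.27 to 0.012 for TUG1. The slope difference ran from -0.35 to 0.24 for SNHG11, from -0.051 to 0.54 for SNHG17 and from -0.44 to 0.50 for SNHG19. The division at CT48, the shortened course, the SKNAS slopes and the slopes with the library median were chosen after seeing the data. With 1 SKNAS series there was no paired fit and no series to leave out, and depth per library is unknown.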
